A study of Mus musculus with 12 samples.

Results

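Genes of neurons and synapses were followed in RNA of microglia, the resident macrophages of the brain, that had been sorted from mice before and after a stroke model. The set held 33 genes: 12 of synaptic vesicles and transmitter release, 5 of transmitter synthesis and transport, 10 of the postsynaptic side, and 6 of the neuronal cytoskeleton, nucleus and metabolism. They were found by mapping the accession of each array probe to the gene, and the probe with the highest mean on an array design stood for its gene. All 33 were found on both array designs, among 27935 genes or accessions kept on one design and 30525 on the other, and 24 had the same probe on both.

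The arrays came from male mice of 8 weeks. Wild type, ZEB1-overexpression (titled zeb1-tg) and ZEB1-knock down mice were each sampled before the stroke model and after it. The model was tMCAO, transient middle cerebral artery occlusion, in which an artery of the brain is closed for a time and then reopened. Cells were taken from the brain by magnetic sorting with a kit that enriches CX3CR1 cells, and total RNA was labelled with Cy3 and hybridised to Agilent 1-colour arrays. Each of the 6 groups had 2 arrays, 12 in all. What drives the transgene or the knock-down, in which cells, and the time between tMCAO and sampling are not given in the sources used here. The labels do not say that replicates came from separate animals, so p-values measure no more than how far these samples spread, and that spread may be technical.

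A neuron passes a signal by fusing transmitter-filled vesicles with its membrane at the synapse, and the receiving cell detects the transmitter through receptors held in place by a dense scaffold. The genes of this machinery are used mainly by neurons, and microglia are not known for making it. Microglia are known to engulf synapses during development and after injury. In bulk RNA such as this, fewer cells of a type and less RNA per cell cannot be told apart.

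The manipulated gene was read in every sample. Zeb1, a zinc-finger repressor of transcription, lay at -0.57 and -0.59 in wild type before tMCAO, at -0.28 and -0.36 in overexpression before, at -0.11 and -0.79 in knock-down before, and at -0.66 and -0.67 in knock-down after. These levels, like all others here, are the log2 of the processed spot signal minus the 75th percentile of that array, so 0 is the 75th percentile, and they are compared for the same probe only. After tMCAO, on the other array design, wild type Zeb1 was 0.12 and 0.41, and that of overexpression -0.08 and 0.56. The knock-down arrays lay on both sides of wild type, and limma called no difference in Zeb1 in any comparison (adjusted p from 0.538 to 0.984 with all spots kept). Where the probe lies relative to the altered sequence is not given, so genotypes are used below as the labels state them.

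Wild type and overexpression after tMCAO were on a slide of 4 arrays, and the other 4 groups on a slide of 8, so only groups of the same slide were tested against each other. Between 60.4% and 73.9% of probes were well above background on each array. The scanner software marked spots as non-uniform or outlying. That share ran from 7.49% to 21.7% on the 4-array slide. On the 8-array slide it ran from 18.2% to 23.7% in the 4 arrays of columns 1 and 2 (knock-down after and overexpression before) and from 1.03% to 3.28% in the 4 of columns 3 and 4 (wild type and knock-down before). Marked spots were left out of the main tests, and values with all spots kept are given beside it. Levels of 3 defining microglial markers were read beside the label. Cx3cr1, P2ry12 and Tmem119 were well above background on every array, with Cx3cr1 between 3.46 and 3.84 on the 4-array slide. All 10 astrocyte and all 11 oligodendrocyte lineage markers read here were too, so passing background does not test the label. On the 8-array slide Cx3cr1 lay at 1.92 and 1.32 in knock-down after tMCAO and between -0.00 and 1.17 in the 6 arrays before it. P2ry12 lay at 0.41 and 1.45 after and between 0.75 and 1.62 before. Tmem119 lay at 1.28 and 0.70 after and between -0.05 and 0.48 before.

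Promoter sequences are shown for 3 of the genes that were lower after tMCAO in the knock-down arrays, since ZEB1 is known to bind the E-box CAGGTG. Each is the 250 bases before the start of a transcript, from RefSeq on build GRCm38.p6, written 5′ to 3′ on the strand of the gene, with E-box letters on either strand in capitals. Slc17a7 lies on the plus strand at chr7:45163671-45163920, the Sv2b window on the minus strand at chr7:75308387-75308636, and Syp on the plus strand at chrX:7638330-7638579.
Slc17a7: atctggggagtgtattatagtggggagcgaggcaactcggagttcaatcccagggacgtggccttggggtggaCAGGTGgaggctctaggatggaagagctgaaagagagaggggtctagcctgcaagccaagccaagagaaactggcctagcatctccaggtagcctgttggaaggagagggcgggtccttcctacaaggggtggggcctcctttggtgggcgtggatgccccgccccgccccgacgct
Sv2b: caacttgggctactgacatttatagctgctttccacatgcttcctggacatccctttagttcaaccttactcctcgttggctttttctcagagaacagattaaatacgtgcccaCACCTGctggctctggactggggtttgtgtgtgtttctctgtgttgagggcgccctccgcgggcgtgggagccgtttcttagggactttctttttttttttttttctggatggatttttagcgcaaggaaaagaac
Syp: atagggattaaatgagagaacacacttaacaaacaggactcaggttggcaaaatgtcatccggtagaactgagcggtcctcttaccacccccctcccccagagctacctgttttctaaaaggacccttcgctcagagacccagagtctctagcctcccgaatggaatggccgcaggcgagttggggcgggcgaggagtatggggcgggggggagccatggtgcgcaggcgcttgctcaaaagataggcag
The E-box began at position -177 from the start in Slc17a7 and at -136 in Sv2b, where it stands on the opposite strand and in 1 of the 4 windows of the gene. The Syp window held no such letters. Of the 33 genes 26 had an entry in the promoter table, with 37 windows of 300 bases (250 before and 50 after the start). CAGGTG on either strand was in 9 of the 37 windows (24.3%), against 6640 of all 32851 windows (20.2%). Shank3 and Nrgn, which were also called lower after tMCAO and are not shown, were not among the genes with a match. A gene without an entry in the promoter table could not have one. The core of RE1, the element bound by the neuronal repressor REST, was in 0 of the 37 windows and in 12 of all 32851 (0.0365%). A match is a description of the letters, not of binding, and no match says only that the letters are not in that window.

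All 33 genes were well above background on all 12 arrays. On the 4-array slide, 24 of them lay above the 75th percentile on every array and 5 on none. On the 8-array slide, 28 lay above it on every array and 2 on none. Cplx2, a complexin that clamps and promotes vesicle fusion, lay at 4.94 to 5.44 on the 4-array slide and at 3.71 to 4.35 on the 8-array slide. Slc17a7, the vesicular glutamate transporter VGLUT1, lay below the 75th percentile on all 12 arrays, with values from -3.10 to -1.94 on the slide of 4 arrays and from -1.66 to -0.21 on the slide of 8. The median level of the 33 genes was between 2.57 and 2.84 in the 6 arrays before tMCAO, 2.36 and 2.54 in knock-down after, 1.98 and 1.96 in wild type after, and 1.78 and 1.36 in overexpression after. Only the arrays of one slide can be set side by side in this list of medians, and there both knock-down arrays after tMCAO were the lowest of the 8.

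**Figure D1:**
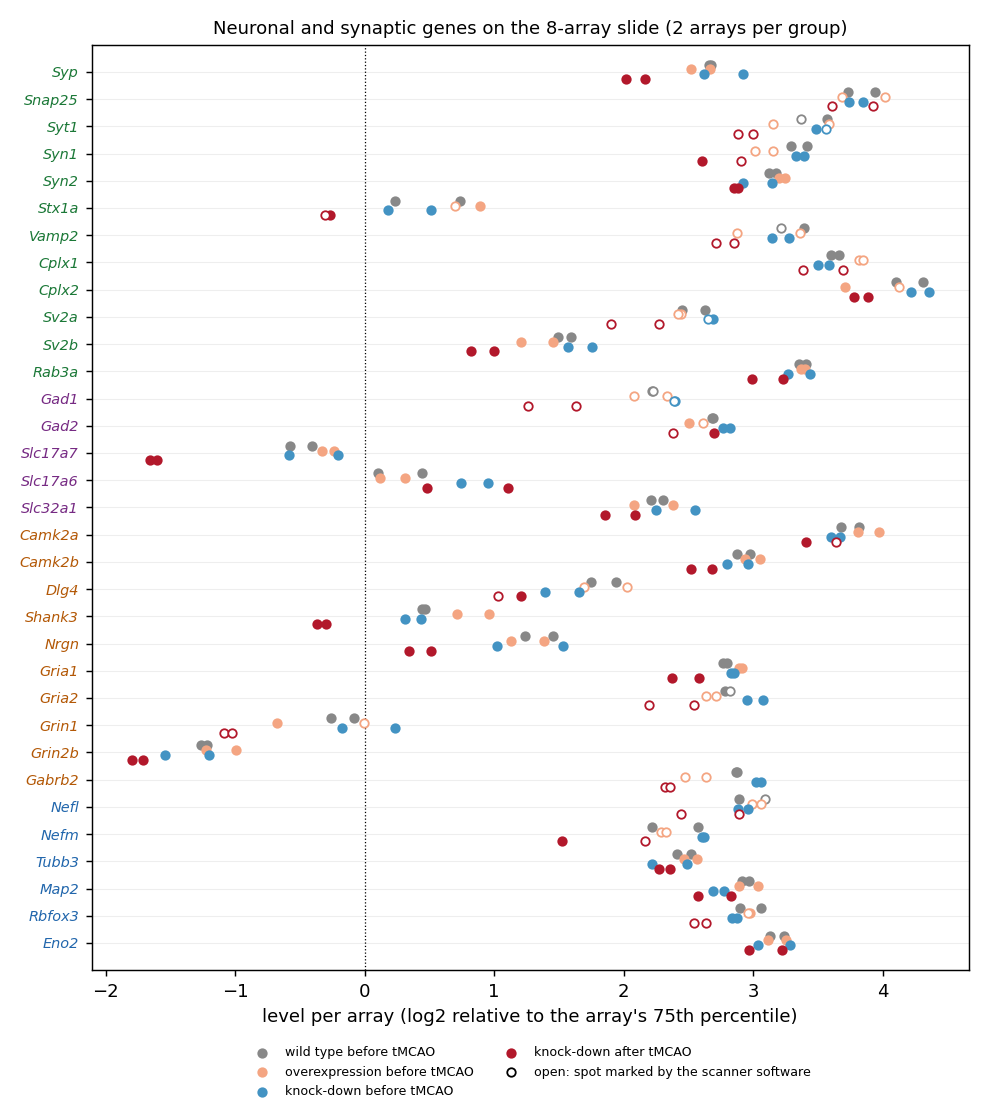
Level of each of the 33 genes on each array of the 8-array slide, as log2 over the array's own 75th percentile (dotted line), with 2 arrays per group. Open circles are spots marked by the scanner software, and gene names are coloured by role. The red points (knock-down after tMCAO) lie left of both blue points (knock-down before) in 25 of 33 genes.

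The knock-down arrays after tMCAO were compared with those before it, which sets the same labelled genotype with the stroke model against that without. Of 22 genes measurable with marked spots left out, 22 lay lower after tMCAO (18 under normexp background correction), and 5 fell by limma: Slc17a7, Sv2b, Syp, Shank3 and Nrgn. The median log2 difference was -0.37, against 0.04 over all 24646 genes tested, of which 47.0% lay below 0 and 5.90% were called lower. Among the 18109 tested genes well above background on every array, as the 33 were, the median was 0.02. Of these 48.3% lay below 0 and 9.15% were called lower, and in that setting 7 of the set were called. With all spots kept, 33 of 33 lay below 0, the median was -0.42 and 9 fell, against 6.47% of 30525 genes. In 25 of the 33 both after arrays lay under both before arrays, against 28.4% of all genes, and in 0 did they lie over them, against 33.6%.

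Among the 12 vesicle and release genes, Syp and Sv2b fell and the other 10 did not pass. Syp, which encodes the vesicle membrane protein synaptophysin, lay at 2.01 and 2.16 after tMCAO and at 2.62 and 2.92 before, a log2 difference of -0.68 ± 0.17 (SE, limma adjusted p = 0.0433). Sv2b, a vesicle glycoprotein gene, lay at 0.82 and 0.999 after and at 1.57 and 1.76 before (-0.75 ± 0.17, adjusted p = 0.0341). In both genes the after arrays lay under both before arrays and also under the wild type and overexpression arrays before tMCAO. Stx1a and Syt1, which encode a membrane SNARE and the calcium sensor of release, were at -0.63 ± 0.22 and -0.58 ± 0.19 with all spots kept and did not pass (adjusted p = 0.0953 and 0.0834). At the other end, Snap25, the partner SNARE of Stx1a, lay at 3.61 and 3.92 after and at 3.85 and 3.74 before (-0.03 ± 0.19, both after spots marked), so its arrays overlapped. Cplx1 overlapped too, at 3.39 and 3.69 after and 3.50 and 3.58 before. The remaining release genes, Syn1 and Syn2 (synapsins, which tether vesicles), Vamp2 (the vesicle SNARE), Cplx2, Sv2a and Rab3a (a vesicle GTPase), ran from -0.61 to -0.17 with all spots kept.

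Slc17a7 had the largest difference of the set. It lay at -1.66 and -1.60 after tMCAO and at -0.58 and -0.21 before, a log2 difference of -1.23 ± 0.18 (adjusted p = 0.0109). The wild type arrays before lay at -0.41 and -0.57 and the overexpression arrays at -0.33 and -0.24, so the 2 after arrays stood apart from all 6 before. Slc17a6, the other vesicular glutamate transporter (VGLUT2), did not follow it: it lay at 0.48 and 1.105 after and at 0.95 and 0.74 before (-0.05 ± 0.25, 95% interval -0.66 to 0.56), with overlapping arrays. Of the GABA side, Gad1, a GABA-synthesising enzyme, lay at 1.63 and 1.26 after and at 2.39 and 2.39 before. All spots but 1 of these were marked, and with all kept it fell by 0.94 ± 0.18 (adjusted p = 0.0221), although another probe of Gad1 went the opposite way. Gad2, the second such enzyme, was at -0.25 ± 0.16 on the same footing, and Slc32a1, the vesicular GABA transporter, lay at 1.86 and 2.09 after and at 2.25 and 2.55 before (-0.43 ± 0.19, adjusted p = 0.165).

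On the postsynaptic side 2 of 7 measurable genes fell, and 5 of 10 with all spots kept. Shank3, a scaffold protein of excitatory synapses, lay at -0.30 and -0.37 after tMCAO and at 0.43 and 0.31 before (-0.70 ± 0.15, adjusted p = 0.0333). Nrgn, which encodes the calmodulin-binding protein neurogranin, lay at 0.51 and 0.34 after and at 1.02 and 1.53 before (-0.85 ± 0.22, adjusted p = 0.0487). Neither gene had a marked spot in these arrays, and in both the groups did not overlap. The 3 added with all spots kept were receptor subunits, all with both after spots marked. Grin1, of the NMDA receptor, lay at -1.08 and -1.02 after and -0.18 and 0.24 before (-1.08 ± 0.26, adjusted p = 0.0401). Gabrb2, of the GABA-A receptor, lay at 2.32 and 2.35 after and 3.02 and 3.06 before (-0.70 ± 0.14, adjusted p = 0.0244). Gria2, of the AMPA receptor, lay at 2.20 and 2.54 after and 3.08 and 2.95 before (-0.64 ± 0.17, adjusted p = 0.0483), with another of its probes going the opposite way. Gria1 and Grin2b, of the same receptor classes, were at -0.36 ± 0.14 and -0.38 ± 0.18, and Dlg4 (the scaffold PSD-95) at -0.40 ± 0.19. The kinase genes Camk2a and Camk2b were at -0.11 ± 0.16 and -0.28 ± 0.15 with all spots kept, and none of these 5 passed.

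The 6 genes of the cytoskeleton, nucleus and metabolism included none that passed. Tubb3, a neuronal tubulin, lay at 2.36 and 2.27 after tMCAO and at 2.22 and 2.49 before (-0.04 ± 0.16, adjusted p = 0.891). Eno2, the neuronal enolase, lay at 2.96 and 3.22 after and at 3.04 and 3.29 before (-0.07 ± 0.17, adjusted p = 0.81). Map2, a dendritic microtubule protein gene, was likewise at -0.03 ± 0.16, and in all 3 the after and before arrays overlapped. Nefm, a neurofilament subunit, lay lower at 2.17 and 1.52 after against 2.62 and 2.61 before, with 1 spot marked (-1.09 ± 0.24 without it, adjusted p = 0.0543, and -0.77 ± 0.25 with it). Nefl, another neurofilament subunit, and Rbfox3, which encodes the nuclear protein NeuN, were at -0.25 ± 0.19 and -0.27 ± 0.14 with all spots kept. The role medians with all spots kept were -0.52 for release, -0.43 for transmitter, -0.52 for postsynaptic and -0.16 for this last group. Differences between roles were not tested.

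**Figure D2:**
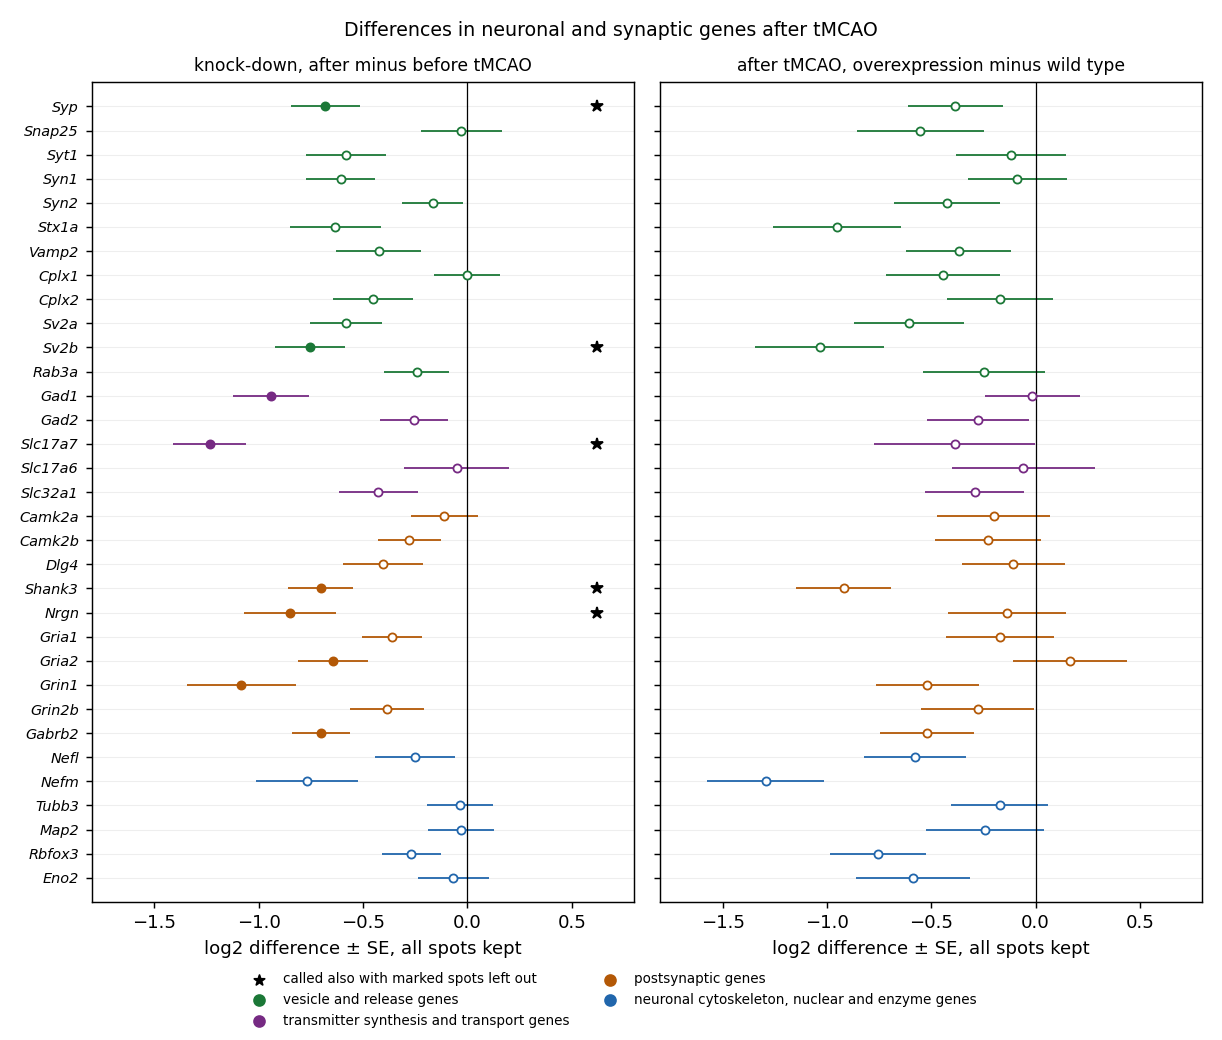
Log2 difference with its SE for each of the 33 genes with all spots kept, in knock-down after minus before tMCAO (left) and overexpression minus wild type after tMCAO (right), coloured by role. Filled circles have a limma adjusted p under 0.05, and stars mark genes that pass also with marked spots left out. On the left all 33 lie below 0 and 9 are filled. On the right 32 lie below 0, and 0 pass.

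Fewer calls were made when any 1 array was left out, in the set and over all genes. A group of 1 array lowers the precision for every gene, so this cannot show whether the calls leaned on single arrays. With marked spots left out, leaving out knock-down before replicate 2 gave Slc17a7 at -1.05 and a median of -0.25. The median over all genes was then 0.05. Leaving out before replicate 1, after replicate 1 or after replicate 2 gave medians of -0.42, -0.29 and -0.45. Those over all genes were 0.05, 0.11 and 0.02. The knock-down arrays after and before lie in different rows and column pairs of the slide, so position and time cannot be told apart directly. The overexpression arrays before tMCAO share the columns and the high share of marked spots with the knock-down arrays after. Against them, 16 of 19 measurable genes lay lower (median -0.39), where 50.2% of all 23606 genes did and 1.75% were called lower, and Slc17a7 (-1.35 ± 0.18, adjusted p = 0.0139) and Shank3 (-1.17 ± 0.16, adjusted p = 0.0142) passed. Against the wild type arrays before, which share the row, 20 of 22 lay lower (median -0.36), where 56.5% of all 24630 genes did and 2.53% were called lower, and the same 2 genes passed (Slc17a7 at -1.14 ± 0.18, adjusted p = 0.021, and Shank3 at -0.79 ± 0.15, adjusted p = 0.0379). Both of these differ in genotype as well as in time, and they use the same after arrays. Under background correction by normexp 18 of 22 lay lower, with Map2, Gad2, Tubb3 and Slc17a6 above 0. Under median scaling, which moved the median of all genes to -0.27, the 33 genes had a median of -0.73 with all spots kept.

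A wider list of 60 neuronal and synaptic genes was read in the same arrays. Of 41 measurable, 38 lay lower after tMCAO, 9 fell and 1 rose (median -0.46), against 47.0% of all genes lower, 5.90% called lower and 10.1% called higher. The falls were in Bsn and Unc13a (the active zone of release), Sv2c, Slc17a8 (a vesicular glutamate transporter), Homer1 and Dlgap3 (postsynaptic scaffolds), Gria3, Nefh (a neurofilament subunit) and Elavl3 (a neuronal RNA-binding protein). Gria3, an AMPA receptor subunit, was at -1.70 ± 0.20 on 1 after array, whose spread the fit takes from the other groups (adjusted p = 0.0156), and at -1.51 ± 0.21 on both with all spots kept (adjusted p = 0.00889). Sv2c, a vesicle glycoprotein gene, was at -2.16 ± 0.32 (adjusted p = 0.0121) and was not well above background on all 4 arrays. The exception was Syngr1, which encodes the vesicle protein synaptogyrin 1, and which rose by 1.96 ± 0.18 (adjusted p = 0.00467).

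Markers of other cells moved in these arrays as well. Of 16 microglial markers 9 were measurable, of which Cx3cr1, Aif1, C1qa, Trem2 and Olfml3 rose and 0 fell (median 1.17), where 10.1% of all genes were called higher. With all spots kept 11 of 16 rose, Tmem119 among them (0.89 ± 0.23, limma adjusted p = 0.0461). P2ry12, with both after spots marked, did not rise. It lay at 0.41 and 1.45 after and at 1.44 and 1.31 before (-0.45 ± 0.37, limma adjusted p = 0.435). The summed level of the microglial list, the sum over its genes of the unlogged level in units of the 75th percentile, was 97.8 and 107 in the after arrays against 56.8 and 59.3 before. That of the 33 neuronal genes was 167 and 188 after against 220 and 230 before. Gfap, the intermediate filament gene of astrocytes, rose by 2.10 ± 0.24 on 1 after array against 2 before (adjusted p = 0.00976, the lone array being assumed to vary like the other groups) and was the 1 astrocyte marker called among 8. Of the oligodendrocyte lineage markers Mog rose among 3 measurable, and of the endothelial and mural markers Pecam1 and Pdgfrb among 7. Summed levels were 64.4 and 65.1 after against 46.1 and 46.5 before for the oligodendrocyte lineage, and 24.3 and 25.0 against 17.8 and 18.8 for endothelial and mural genes. Of 6 lymphocyte markers Cd3e and Cd4 fell, of 4 erythroid markers Alas2 and Slc4a1 fell, and of 4 neutrophil markers Cxcr2 rose. The lymphocyte list lay near background on this slide, with 6 and 2 of its 9 genes well above it in the knock-down arrays after tMCAO and median levels of -5.05 and -7.31. The part of these shifts in the neuronal result was not tested.

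**Figure D3:**
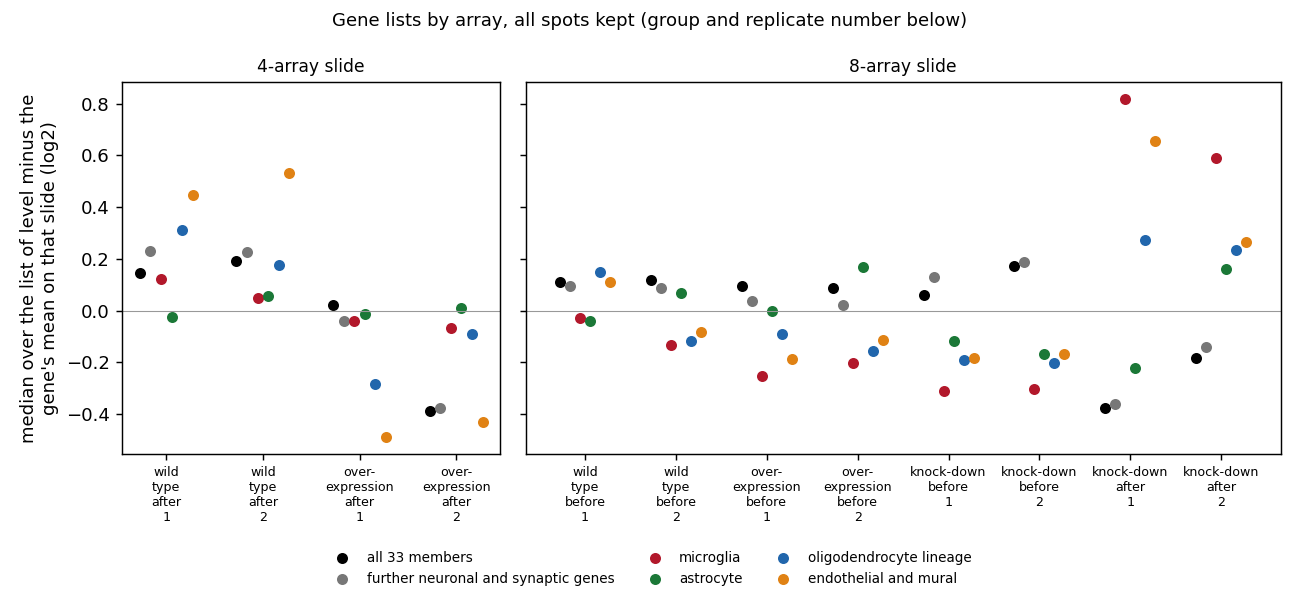
Median over each gene list of the level on an array minus the mean of the gene over the arrays of that slide (log2, all spots kept), for the 33 neuronal genes, 60 further neuronal genes and 4 marker lists. On the 8-array slide both knock-down arrays after tMCAO lie lowest for the 33 genes (-0.38 and -0.18) and highest for microglial markers (0.82 and 0.59). On the 4-array slide overexpression replicate 2 lies lowest for the 33 genes (-0.39).

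The overexpression and wild type arrays after tMCAO were compared on the 4-array slide, which sets the 2 labelled genotypes side by side after the stroke model. The neuronal genes lay lower in overexpression but 0 passed the test. With marked spots left out 18 were measurable, 16 of them below 0 (median -0.39), and 2 (11.1%) had an unadjusted limma p under 0.05. Over all 22072 genes the median was -0.11, 58.0% lay below 0, 20.8% had an unadjusted p under 0.05, 2.31% were called and 0.734% were called lower. With all spots kept 32 of 33 lay below 0, 0 were called (1.25% of all genes were called lower) and the median was -0.29. Of the 33, 6 (18.2%) had an unadjusted p under 0.05, against 22.5% of all genes, so in neither form was the share above that of all genes. In 18 of 33 both overexpression arrays lay under both wild type arrays, against 33.8% of all genes, and in 0 over both, against 21.6%. Under normexp the median of the 18 genes was -0.28 and that of all genes -0.27, so there the neuronal genes did not stand below the rest.

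The lowest adjusted p belonged to Nefm. It lay at -0.63 and -1.26 in overexpression and at 0.42 and 0.29 in wild type, a log2 difference of -1.14 ± 0.28 (adjusted p = 0.0869). Shank3 lay at -1.39 and -1.45 in overexpression and at -0.41 and -0.59 in wild type (-0.82 ± 0.24, adjusted p = 0.121). In both genes the groups did not overlap. Their probes were spotted several times on this slide, and the levels average all of these spots while the tested differences leave the marked ones out; with all kept the differences were -1.29 ± 0.28 and -0.92 ± 0.23. Cplx2 lay at 5.33 and 4.94 against 5.44 and 5.17 (-0.17 ± 0.27, adjusted p = 0.761), and Slc17a7 at -1.94 and -3.10 against -2.03 and -2.24 (-0.39 ± 0.39, adjusted p = 0.619). Both of these overlapped, and the 2 overexpression arrays of Slc17a7 were 1.16 apart. Among genes with marked spots, Sv2b was at -1.03 ± 0.31, Stx1a at -0.95 ± 0.31 and Rbfox3 at -0.75 ± 0.23 with all spots kept, none past the test (adjusted p from 0.117 to 0.135). Gria2, at 0.16 ± 0.27 with all spots kept, was the 1 gene above 0 on that footing, though its other probe lay at -0.51. Other probes of Camk2a and Camk2b lay above 0 (0.75 and 0.35). The genes above 0 with marked spots left out were Map2 and Nrgn. By role the medians with all spots kept were -0.41 for release, -0.28 for transmitter, -0.21 for postsynaptic and -0.58 for the cytoskeleton, nuclear and enzyme genes.

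The 2 overexpression arrays after tMCAO differed from each other. Replicate 2 lay below replicate 1 in 32 of 33 genes (median gap -0.43), whereas over all genes the median gap was -0.08. In the other 5 groups the median gap of the 33 genes was between -0.01 and 0.15. Without overexpression replicate 2 the median difference from wild type was -0.01 over 11 genes, against -0.06 over all genes. With all spots kept it was -0.15 and 22 of 33 lay below 0, against -0.05 and 54.5% over all genes. Without replicate 1 the medians were -0.46 and, with all spots kept, -0.57, against -0.14 over all genes in both forms. More genes were then called, in the set and over all genes, while without replicate 2 more were called over all genes only. The genotypes occupied different rows of the slide (wild type 1, overexpression 2), and an effect of row cannot be told apart from one of genotype.

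**Figure D4:**
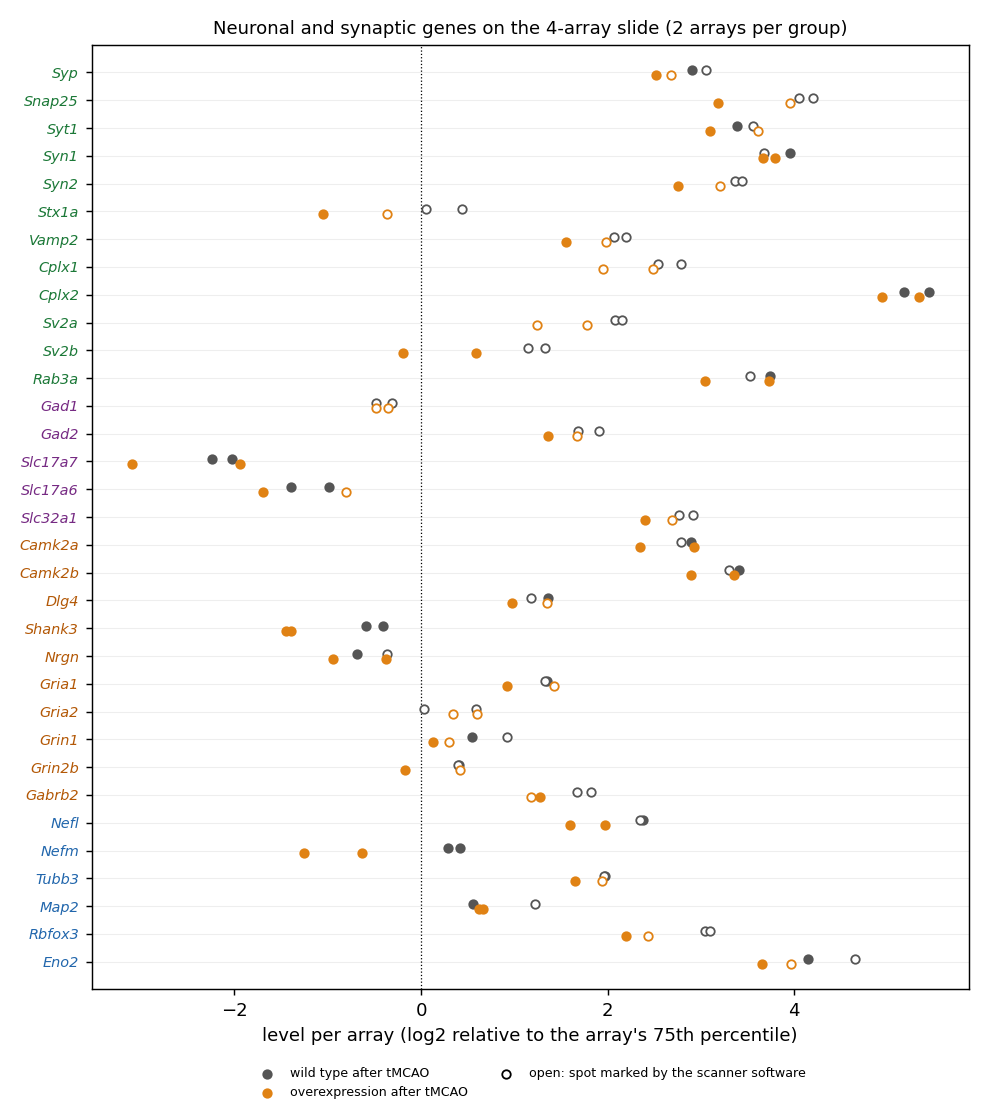
Level of each of the 33 genes on each array of the 4-array slide, as log2 over the array's own 75th percentile (dotted line), with 2 arrays each of wild type and overexpression after tMCAO. Open circles are spots marked by the scanner software. In 18 of 33 genes both overexpression points lie left of both wild type points.

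Of the wider list 44 genes were measurable in this comparison, 40 of them lower in overexpression (median -0.46), and 0 passed. Those with the smallest p were Elavl2, a neuronal RNA-binding protein gene, at 1.25 ± 0.39 on 1 array per group, Rims2, an active zone gene, at -0.94 ± 0.32, and Camk4, a calcium-dependent kinase gene, at -0.84 ± 0.31 (adjusted p from 0.172 to 0.206). Endothelial and mural markers lay lower in 9 of 9 measurable genes (median -0.87), and 3 of 11 fell with all spots kept (Cldn5, Des and Acta2). With marked spots left out, the 1 marker of another cell type that was called was Elane, the elastase gene of immature neutrophils, which rose by 2.01 ± 0.37 (adjusted p = 0.0463, and 0.0392 with all spots kept). The 3 measurable neutrophil markers lay above 0 (median 1.16). Lymphocyte markers lay above 0 in 7 of 7 measurable genes (median 0.61), and 0 passed. Their higher level was mainly in overexpression replicate 2: the median deviation from the gene's own mean over the slide was 1.01 there and -0.28 in replicate 1, and the summed level was 20.3 and 10.9, against 8.65 and 10.1 in wild type. Replicate 2 was also the array with the lowest neuronal values (-0.39 by the same measure), so both stood apart on 1 array. The summed level of the endothelial and mural list was 14.7 and 15.5 in overexpression against 25.8 and 27.6 in wild type. That of the oligodendrocyte lineage was 26.7 and 28.1 against 34.9 and 36.1, and that of the 33 neuronal genes 149 and 199 against 212 and 223. Microglial markers had a median of -0.03 over 8 measurable genes. Over all 16 their summed level was 209 and 229 in overexpression against 236 and 259 in wild type. That of the astrocyte list was 56.7 and 57.1 against 62.4 and 63.8. The neutrophil list went the other way, at 61.4 and 61.7 against 51.2 and 60.1. The part of these markers in the neuronal values was not tested.

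Before tMCAO the 3 genotypes were compared on the 8-array slide, and no neuronal gene passed in any pair. The 3 comparisons share arrays with each other, and those with knock-down share its before arrays with the comparison over time. Overexpression against wild type gave 21 measurable genes, 11 below 0, with a median of -0.00 and 0 called, and limma called 0% of all 25162 genes, of which 51.2% lay below 0. Of the 21, 1 (4.76%) had an unadjusted p under 0.05, against 10.8% of all genes. Knock-down against wild type gave all 33, 17 below 0 (median -0.02), with 0 called, and 0% of 30293 genes called, 61.5% of them below 0. An unadjusted p under 0.05 was found in 0 of the 33 and in 8.75% of all genes. Overexpression against knock-down gave 21 genes, 9 below 0 (median 0.06), with 0 called, and 0% of 25167 genes called, 39.8% of them below 0. Here 3 of the 21 (14.3%) had an unadjusted p under 0.05, against 13.3% of all genes.

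Single genes before tMCAO ran, with all spots kept, from -0.32 to 0.38 between overexpression and wild type, from -0.32 to 0.57 between knock-down and wild type, and from -0.63 to 0.47 between overexpression and knock-down. With marked spots left out the last range widened to -0.71 (Grin1) and 0.54 (Stx1a), both on 1 overexpression array and neither past the test. Shank3 lay at 0.71 and 0.96 in overexpression, against 0.44 and 0.47 for wild type and 0.43 and 0.31 for knock-down. Its overexpression arrays lay above the other 4, with differences of 0.38 ± 0.15 from wild type (adjusted p = 0.458) and 0.47 ± 0.15 from knock-down (adjusted p = 0.315), while its mean over all probes gave -0.10 for each. Slc17a6 lay at 0.95 and 0.74 in knock-down, against 0.44 and 0.10 for wild type and 0.12 and 0.31 for overexpression, with the knock-down arrays highest (0.57 ± 0.24 over wild type, adjusted p = 0.591). Sv2b, Syn2, Camk2a, Tubb3 and Map2 differed between overexpression and wild type by -0.21 to 0.14, and other probes of Syn2 and Map2 went the opposite way. Between knock-down and wild type, Dlg4 lay at 1.39 and 1.65 against 1.94 and 1.75 (-0.32 ± 0.18, adjusted p = 0.75). Its knock-down arrays were thus the lower pair, although another probe of Dlg4 went the opposite way. Map2, at 2.78 and 2.69 against 2.97 and 2.92, was also lower without passing (-0.21 ± 0.14, adjusted p = 0.803). Nefm, Grin1, Slc32a1, Sv2b and Stx1a were between -0.14 and 0.22, and all 5 transmitter genes lay above 0. Between overexpression and knock-down, Sv2b was at -0.33 ± 0.17, Syn2 at 0.18 ± 0.15, Slc32a1 at -0.17 ± 0.19 and Grin2b at 0.26 ± 0.17, and Slc17a6 at -0.63 ± 0.25 (adjusted p = 0.362). Tubb3 and Map2 were at 0.17 ± 0.16 and 0.23 ± 0.16. Other probes of Grin2b and Map2 went the opposite way between overexpression and knock-down. With all spots kept, both arrays of the first group lay under both of the second in 6, 6 and 10 of 33 genes in the 3 comparisons, in the order given above, against 24.4%, 30.0% and 19.4% of all genes. They lay over them in 5, 8 and 10, against 22.8%, 13.9% and 31.8%. For Slc17a7 the difference between overexpression and wild type was 0.21 ± 0.18, with a 95% interval from -0.22 to 0.63.

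**Figure D5:**
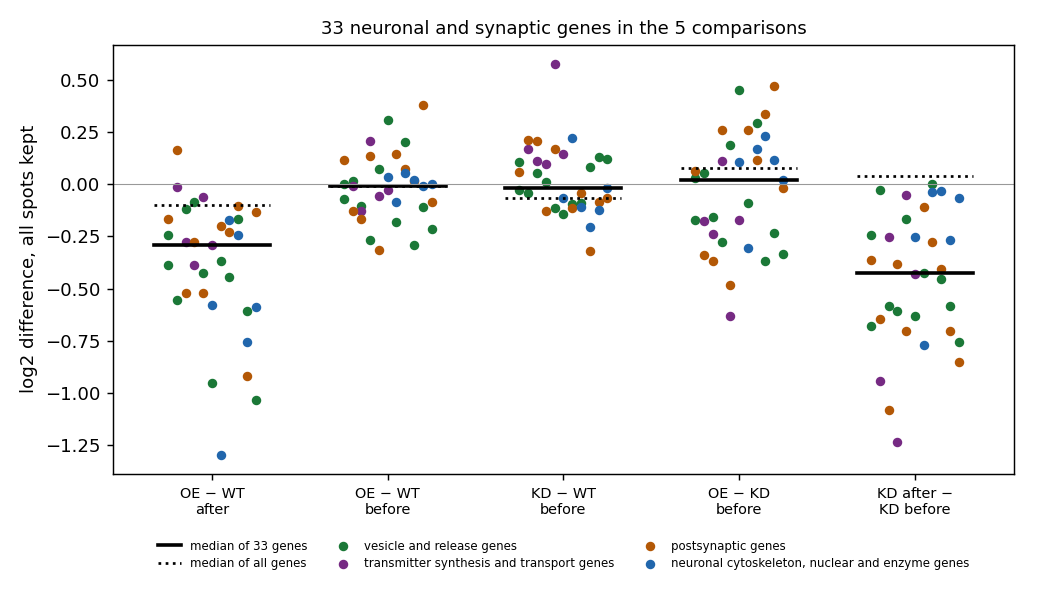
Log2 differences of the 33 genes in the 5 comparisons with all spots kept, coloured by role (OE is overexpression, KD knock-down and WT wild type). Solid lines are the medians of the 33 genes and dotted lines those of all genes. The medians are -0.29 for overexpression against wild type after tMCAO and -0.42 for knock-down after against before, and lie between -0.02 and 0.02 in the 3 comparisons before tMCAO.

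Members of the same family did not always have like differences over time in the knock-down arrays. With all spots kept, Syn1 was at -0.61 ± 0.16 and Syn2 at -0.17 ± 0.15, Cplx1 at -0.00 ± 0.16 and Cplx2 at -0.45 ± 0.19, and Nefl at -0.25 ± 0.19 and Nefm at -0.77 ± 0.25. Sv2a and Sv2b were nearer to each other, at -0.58 ± 0.17 and -0.75 ± 0.17. Gad1 fell and Gad2 was at -0.25 ± 0.16. Differences within a pair were not tested. Where a gene had a further probe, 2 of 21 went the opposite way to the chosen probe in this comparison (Gad1 and Gria2), 3 of 14 in overexpression against wild type after tMCAO, and 8 or 9 of 21 in the comparisons before it.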

How the data were processed

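RNA of sorted microglia was hybridised to Agilent 1-colour arrays, 2 per group. Per the file headers the authors extracted spot intensity with Feature Extraction 11.5.1.1, while the submitters' processing notes name version 9.1; the deposited scanner intensity (processed signal, background-corrected by that software) was used. The authors' deposited value tables hold log2 signals that differ from the scanner files by a constant per array, with column medians from -3.77 to -3.05; their original scale is not stated. In them the columns of the 2 knock-down arrays after tMCAO were exchanged.

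From the signals, log2 was taken, the array's 75th percentile subtracted, spots of a probe averaged without marked spots, and dim probes removed. Accessions were named through RefSeq tables (48.1% and 59.7% of probes on the 2 slides). The probe with the highest mean stood for a gene. Each slide was fitted over all its genes and groups with limma 3.58.1 in R 4.3.3, with Benjamini-Hochberg adjustment at 0.05, after tests on simulated data. With 2 arrays per group, their number limits the precision. Genes given in full were, per comparison and role, the 2 with the largest difference among those well above background with values on all 4 arrays, and every gene past the threshold; of the wider list, the 3 with the smallest p. The genes and lists were chosen with earlier results of these data known. Alternatives were quantile and median scaling, normexp (offset 50, on median signals, since mean signals were not in the files used), filters, probe choice, a replicate block, and left-out arrays; those combined with keeping all spots, and those with other arrays before tMCAO, were chosen after seeing the data. One marker gene of the rule is not reported here.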

Additional observations from a re-analysis of the deposited data

Results flagged for a closer look

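In 3 of the 33 genes, both overexpression arrays lay below both wild type arrays after tMCAO and above both before it, with all spots kept. That is 9.09% of the set, and 9.11% of the 19769 genes tested on both slides met the same condition. The log2 differences were -0.43 after and 0.070 before for Syn2, -0.44 and 0.20 for Cplx1, and -0.92 and 0.38 for Shank3. The difference between the times was not tested, because the groups after and before were on slides of different design. Before tMCAO other probes of Shank3 and Syn2 went the opposite way.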

How the results depend on the processing

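The direction of the time comparison in knock-down arrays held for the median of the set under every alternative run, while the number of genes called did not. Against 5 in the main setting, limma called 9 with all spots kept, 1 with no filter on dim probes, 1 with only the 2 groups fitted and 9 with the mean over probes. The share of all genes called lower was 5.90% in the main setting and 6.47%, 0.978%, 2.38% and 6.28% in these. With all spots kept it called 11 under quantile normalization and 13 under median scaling, as the share of all genes called lower went from 6.47% to 9.37% and 12.3%. With the overexpression arrays before tMCAO in place of the knock-down ones 2 were called (3 with all spots), and with the wild type arrays 2 (2). Of all genes, 1.75% (2.41%) and 2.53% (2.68%) were called lower there. Same-numbered arrays correlated in their deviations over genes at 0.04 to 0.17, which cannot show whether replicate numbers pair the samples. With the number as a replicate block 3 genes were called in this comparison, where 4.99% of all genes were called lower, and 0 in the others. Leaving out 1 array gave 0 to 7 calls and medians from -0.54 to -0.25. The median was -0.71 under median scaling, -0.22 under normexp, and with all spots kept -0.48 under quantile normalization and -0.73 under median scaling. The cause was not tested. Scaling moved the median of all genes from 0.04 to -0.27 (median scaling) and 0.21 (normexp).

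For overexpression against wild type after tMCAO, leaving out 1 array gave medians from -0.57 to -0.0067. Cplx2 then ran between -0.36 and 0.026, and Slc17a7 between -0.97 and 0.19. Genes of the set were called only without overexpression replicate 1. More of all genes were called when either replicate 1 or replicate 2 of overexpression was left out. Before tMCAO the medians moved around 0. Overexpression against wild type was at 0.077 under median scaling, 0.21 under normexp and 0.067 under median scaling with all spots. Knock-down against wild type was at 0.084 under quantile normalization (0.083 with all spots) and 0.19 under median scaling with or without marked spots, and at -0.089 to 0.055 without 1 array. Overexpression against knock-down was at -0.011 (quantile), -0.092 (median scaling), 0.20 (normexp) and -0.016 (mean over probes), at -0.088 and -0.12 with all spots kept under quantile and median scaling, and at -0.11 to 0.14 without 1 array.

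Single genes changed sign under some settings. Between overexpression and wild type before tMCAO, Slc17a6 was at 0.020 under median scaling (both with and without marked spots), 0.079 under normexp and -0.23 to 0.11 without 1 array, Shank3 at -0.099 with the mean over probes, and Tubb3 at -0.00024 to 0.11 and Map2 at -0.053 to 0.096 without 1 array. Between knock-down and wild type, Stx1a was at 0.073 and Map2 at 0.0081 under median scaling, and without 1 array Stx1a ran from -0.39 to 0.11, Slc32a1 from -0.0087 to 0.29 and Grin1 from -0.0020 to 0.41. Between overexpression and knock-down, Slc32a1 was at 0.11 under normexp and Shank3 at -0.10 with the mean over probes. Over time in knock-down, Tubb3 was at 0.023 under normexp and -0.17 to 0.098 without 1 array, and Eno2 at -0.20 to 0.064. Marked spots limit what was measurable: 11 of the 33 genes had no unmarked value in a group of the time comparison, and 15 after tMCAO between genotypes.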
